A study of Mus musculus with 17 samples.

Results

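Early elongating spermatids (EES) were compared with round spermatids (RS), the stage before them in the maturation of mouse sperm. The comparison rests on 6 of the 17 samples of the series, 3 libraries of EES and 3 of RS, and on each group's columns in a table of annotated genes and a table of de novo genes assembled from the reads. Both groups came from testes of male C57BL/6JRj mice of 3 months labelled WT, from cells dissociated with collagenase and trypsin, stained with Hoechst 33342 and SYTO 16 and sorted by flow cytometry. Whether the 3 libraries of a group came from separate animals is not stated in the labels. The p-values below therefore describe a spread among libraries, which may be technical. That spread was estimated jointly over 15 libraries of 5 sorted stages, not from these 6 libraries alone. Of the other stages, late elongating spermatids (LES, 3 libraries) and pachytene/diplotene spermatocytes (PD, 3 libraries) are used beside some results, as is 1 library of elongating spermatids that the labels call Prm1-EGFP sorted and that was stained with Hoechst 33342 alone. Its genotype label is WT too, and its column in the table of annotated genes has another name prefix than those of the 5 sorted stages.

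As background, a round spermatid is a haploid cell that has finished meiosis and still transcribes, while it builds the acrosome, the enzyme-filled cap over the nucleus. During elongation the nucleus is reshaped by a skirt of microtubules called the manchette, the tail is assembled, and histones are replaced first by transition proteins and then by protamines, small arginine-rich proteins that pack the DNA of sperm. Transcription ceases in the course of this replacement, and many messengers of late proteins are made early and stored before they are translated.

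The libraries held 90553570, 96930399 and 121159712 reads in EES, against 107913614, 137849519 and 132531466 in RS. Values of a group are given in the order of replicates 1, 2 and 3 throughout. Annotated genes held 87.5, 82.1 and 87.7% of the reads in EES, against 74.6, 80.4 and 78.8% in RS. Levels are in RPKM, read numbers scaled by exon length and by the size of the library. EES libraries had 6580, 9027 and 7258 genes at 1 RPKM or more, against 9976, 10147 and 10146 in RS libraries. EES replicate 2 stood apart from its group. Across the tested genes its Spearman rank correlation was 0.871 with EES replicate 1 and 0.921 with replicate 3, and between 0.788 and 0.822 with the RS libraries. EES replicates 1 and 3 correlated at 0.979 with each other and at 0.612 to 0.707 with RS, and the RS libraries at 0.985 to 0.991 among themselves. With the LES libraries, EES replicate 1 correlated at 0.951 to 0.982 and replicate 3 at 0.972 to 0.989, about as closely as with each other. EES replicate 2 correlated with LES at 0.892 to 0.904. Which EES libraries are typical of the stage was not tested. The value of EES replicate 2 stands as the second of the EES values wherever the libraries are given. Counts of the gene lists are also given without it.

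RNA of EES was concentrated on fewer genes. The 100 genes with most reads held 37.3, 22.5 and 35.4% of all gene reads in EES, against 15.6, 15.8 and 15.7% in RS. The protamine and transition protein genes alone held 8.3, 3.32 and 7.12% in EES, against 0.05, 0.07 and 0.11% in RS. A level is a share of a library's reads, so a gene can lose share because others gain it. In bulk samples, fewer cells of a type and less RNA per cell cannot be told apart.

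**Figure D1:**
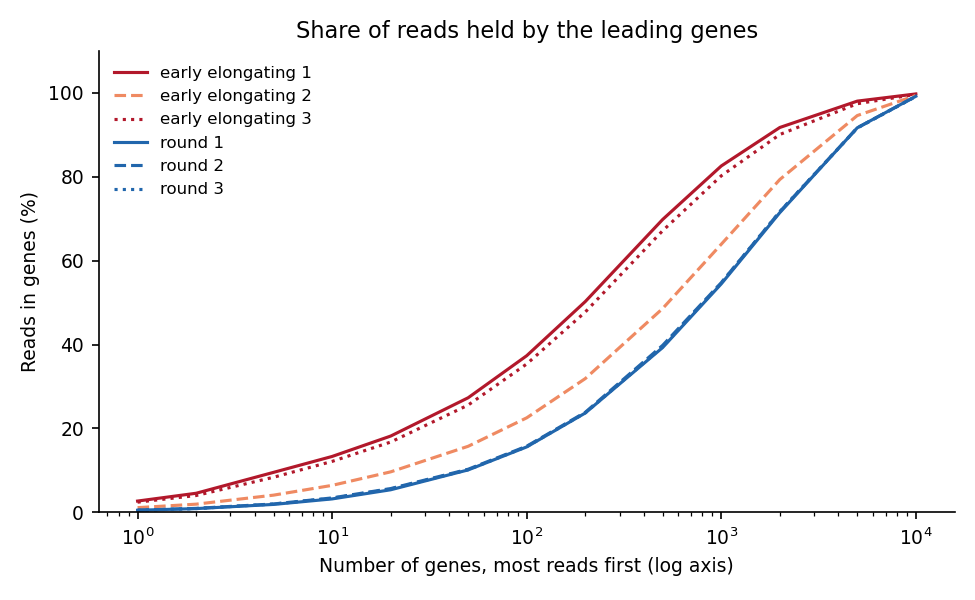
Cumulative share of reads in genes (%) held by the leading genes of each of the 6 libraries, with genes ordered by reads on a log axis. At 100 genes EES replicates 1 and 3 stand at 37.3 and 35.4%, EES replicate 2 at 22.5% and the RS libraries at 15.6 to 15.8%.

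Marker genes were read first as a check of the labels. Prm1, which encodes protamine 1, had 28436, 9452 and 23462 RPKM in EES, against 124, 152 and 234 RPKM in RS. Tnp1, transition protein 1, had 36638, 14671 and 31896 RPKM in EES, against 219, 352 and 530.3 RPKM in RS. Odf1, a protein of the outer dense fibres of the tail, had 2865, 1475 and 2655 RPKM in EES, against 93.5, 139 and 140.2 RPKM in RS. The EES libraries lay above the RS libraries for these 3 genes without overlap, with EES replicate 2 the lowest of its group. Acrv1, an acrosomal protein made in round spermatids, had 3.05, 95.2 and 8.14 RPKM in EES, against 33.4, 26.1 and 35.7 RPKM in RS. Its EES libraries lay on both sides of RS, with replicates 1 and 3 below and replicate 2 above.

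**Figure D2:**
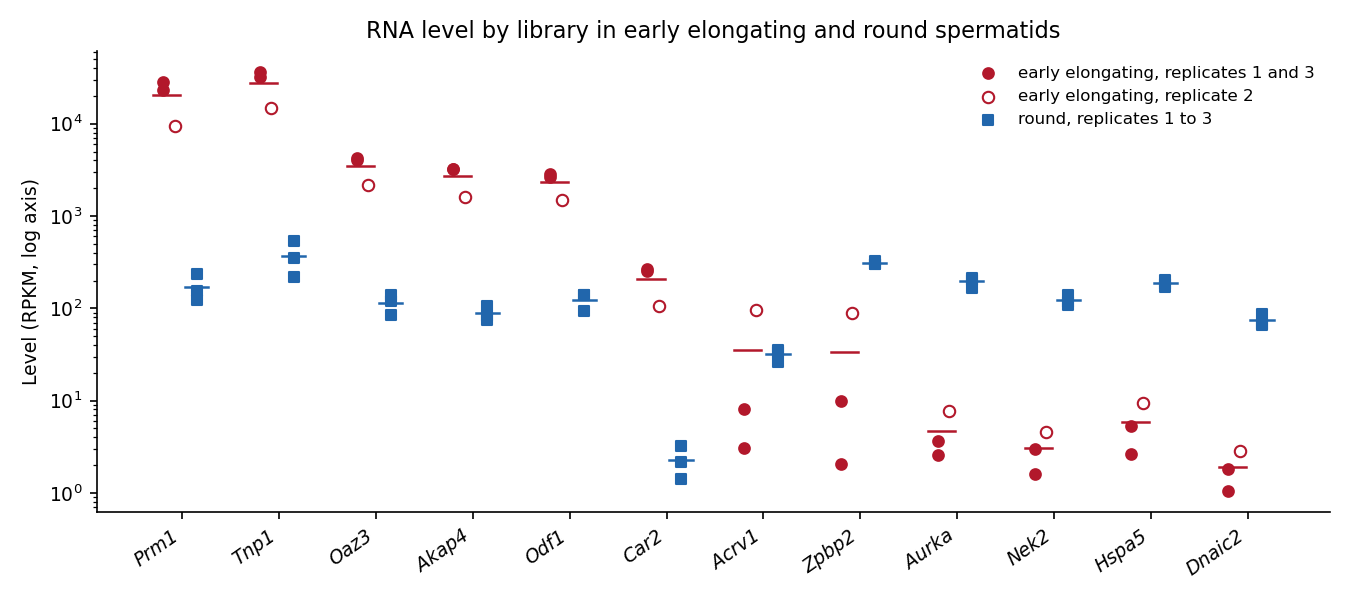
Level (RPKM, log axis) of 12 genes in each library. Filled circles are EES replicates 1 and 3, open circles EES replicate 2, squares the 3 RS libraries, and short lines the group means. Genes from Prm1 to Car2 are higher in all EES libraries, Aurka to Dnaic2 lower in all, and for Acrv1 replicate 2 (95.2 RPKM) lies above RS while replicates 1 and 3 (3.05 and 8.14 RPKM) lie below.

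Over all annotated genes, most changes in share were falls. Tested were 13260 genes, those with 1 RPKM or more in 3 or more of the 15 libraries that make up the 5 sorted stages. Of these, 2096 (15.8%) rose and 7286 (54.9%) fell. A gene is said to rise or fall here with a Benjamini-Hochberg adjusted p under 0.05 in limma over all tested genes and an absolute log2 fold change, EES minus RS, of at least 1 on the log2 scale of RPKM plus 0.01. The middle gene of those tested had a log2 fold change of -1.42. With each library centred on its median gene that median was 0.02, and 4306 genes (32.5%) rose and 3715 (28.0%) fell. The gene lists below hold 890 genes, of which 843 passed this filter on low values. Calls with centring are therefore given beside the main ones as changes relative to the median gene. Counts of the lists are to be read beside the 15.8% of all tested genes that rose and the 54.9% that fell. Without EES replicate 2, 2057 genes (15.5%) rose and 7985 (60.2%) fell. With the spread estimated from the 6 libraries alone, 2041 rose and 6713 fell. Libraries of the groups did not overlap for 10113 genes (76.3%), with 2533 (19.1%) higher and 7580 (57.2%) lower in EES. The genes that rose took up 68.9, 44.4 and 66.3% of reads in EES, against 8.1, 8.4 and 9.3% in RS. The genes that fell held 6.5, 23.7 and 8.4% in EES, against 64.2, 63.2 and 61.7% in RS. Both classes were defined from these same libraries, so the direction of these shares follows from the definition.

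**Figure D3:**
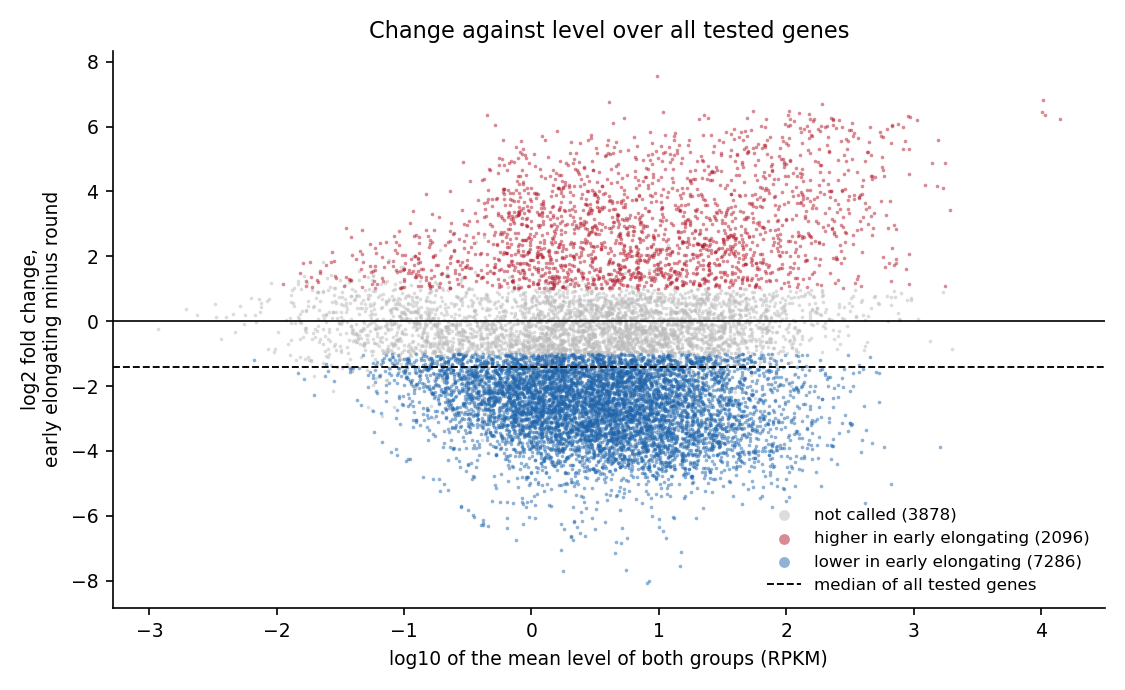
Log2 fold change, EES minus RS, against the log10 mean level of both groups (RPKM) for the tested genes (13 genes at 0 in all 6 libraries are not drawn). The 2096 genes that rose, the 7286 that fell and the 3878 not called are coloured, the solid line is 0 and the dashed line the median of -1.42; the highest levels, at the right, belong to genes that rose.

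Tnp1, Tnp2, Prm1 and Prm2 had the highest levels of the tested protein-coding genes in EES. All 5 tested members of this list rose, also with centring, with quantile normalization and without EES replicate 2, and their median log2 fold change was 6.37, or 4.64 with quantile normalization. Tnp2, transition protein 2, had 29067, 10630.4 and 23876 RPKM in EES, against 165, 226 and 348 RPKM in RS. Prm2, protamine 2, had 26577, 10446 and 23936 RPKM in EES, against 137, 242 and 304 RPKM in RS. Prm3, an acidic protein encoded between Prm2 and Tnp2, had 1376, 665 and 1233 RPKM in EES, against 25.2, 33.3 and 35.6 RPKM in RS. Prm1 had the largest log2 fold change of the 5, at 6.82 ± 0.50 (SE, adjusted p 1.94e-07), followed by Prm2 at 6.44 ± 0.51, Tnp2 at 6.37 ± 0.50, Tnp1 at 6.22 ± 0.48 and Prm3 at 5.07 ± 0.46. This order was not kept with quantile normalization, where Tnp1 had 4.92, Prm1 4.79, Tnp2 4.64, Prm3 4.63 and Prm2 4.55. EES replicate 2 had each of them between the groups, at a median of 40.8% of the way from the RS mean to the mean of EES replicates 1 and 3. In LES, Prm1 had 23810.1, 24591 and 23495 RPKM, within the range of the EES libraries. In the Prm1-EGFP library it had 4379.8 RPKM, and Tnp1 had 43618 RPKM. Exons of Tnp1 overlap those of 1700027A15Rik on the other strand, and whether the counting used strand is not given in the sources used here, so reads of such pairs cannot be told apart.

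Prm1, Prm2, Prm3 and Tnp2 lie together on chromosome 16 on the minus strand. In RefSeq's GRCm38.p6, Prm1 spans chr16:10796332-10796823, Prm2 chr16:10791377-10792105, Prm3 chr16:10790508-10790914 and Tnp2 chr16:10787935-10788655. The 150 bases before the RefSeq start of Prm1, Prm2 and Tnp2 are shown 5′ to 3′. They are the promoters of the largest gains in RNA of the nuclear proteins. Beside them stand 150 bases of Aurka, a kinase gene that fell, whose window lies within the span of the gene. Capitals mark matches to TGACTTCA, which resembles the cAMP-response element TGACGTCA bound by CREM-type activators, and to TATA or TATAAA, the core of a TATA box.
Prm1 (chr16:10796824-10796973, minus strand): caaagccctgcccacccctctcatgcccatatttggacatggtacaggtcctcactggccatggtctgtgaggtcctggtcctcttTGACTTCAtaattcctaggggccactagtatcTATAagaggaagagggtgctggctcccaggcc
Prm2 (chr16:10792106-10792255, minus strand): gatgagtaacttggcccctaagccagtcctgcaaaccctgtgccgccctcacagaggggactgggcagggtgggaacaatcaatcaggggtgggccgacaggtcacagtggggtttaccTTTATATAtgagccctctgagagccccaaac
Tnp2 (chr16:10788656-10788805, minus strand): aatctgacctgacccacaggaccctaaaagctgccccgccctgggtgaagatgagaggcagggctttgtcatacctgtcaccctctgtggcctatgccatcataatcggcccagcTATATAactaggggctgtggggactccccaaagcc
Aurka (chr2:172370571-172370720, minus strand): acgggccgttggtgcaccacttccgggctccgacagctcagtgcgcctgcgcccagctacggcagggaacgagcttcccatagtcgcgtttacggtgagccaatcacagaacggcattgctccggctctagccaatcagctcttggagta
The TGACTTCA of Prm1 begins 64 bases before the start, and the TATA matches begin 32 bases before the start of Prm1, 29 before that of Prm2 and 35 before that of Tnp2, each on the gene's strand. In Prm2 the capitals also cover TATAAA on the other strand, 31 bases before the start. The window of Aurka holds no match to these letters. It lies inside the RefSeq span of Aurka (chr2:172356190-172370886), so it does not show the bases before the outer end of that gene. TGACTTCA, searched on both strands from 250 bases before to 50 after the start in the first RefSeq window of each gene, was in 2.4% of the windows of 1666 genes that rose, 0.85% of 5753 that fell and 1.21% of 10391 tested genes with a window. TGACGTCA was in 2.82% of the windows of genes that rose, 3.49% of those that fell and 3.42% of all tested. TGACGT, which also counts each TGACGTCA, was in 10.08, 12.43 and 11.95% in the same order. TATA on the gene's strand in the 50 bases before the start was in 7.32% of genes that rose, 3.98% of those that fell and 4.96% of all tested. Of genes that rose by at least 4 in log2 at 32 RPKM or more, 210 had a window. Among these, TATA was in 4.76%, TGACTTCA in 4.29%, TGACGTCA in 3.33% and TGACGT in 11.9%. Windows of genes that rose had a median of 11 CpG dinucleotides and 55.7% G plus C, against 21 and 60.0% in genes that fell and 20 and 59.7% in all tested genes.

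With clone-based names passed over, Klk1b8, Car2 and Il2rg were among the 12 largest rises of protein-coding genes at 32 RPKM or more in EES. Klk1b8, a gene of the glandular kallikrein family of serine proteases, had 476, 201 and 463 RPKM in EES, against 1.92, 3.34 and 6.24 RPKM in RS. Car2, carbonic anhydrase 2, which interconverts carbon dioxide and bicarbonate, had 269, 105 and 253 RPKM in EES, against 1.40, 2.16 and 3.20 RPKM in RS. Il2rg, the common gamma chain of interleukin receptors, had 60.6, 25.5 and 58.1 RPKM in EES, against 0.354, 0.622 and 0.875 RPKM in RS. For these 3, as for all 12, libraries of the groups did not overlap, which was a condition of the choice. Log2 fold changes of Klk1b8, Car2 and Il2rg were 6.69 ± 0.52 (adjusted p 2.65e-07), 6.49 ± 0.47 (1.77e-07) and 6.25 ± 0.47 (2.19e-07). Completing these 12 were Prm1, Prm2 and Tnp2, the kallikreins Klk1b26 and Klk1b9, the beta-defensin Defb33, the ubiquilin-like Ubqlnl, the actin gene Acte1 and Paqr5, a membrane progestin receptor, with log2 fold changes from 6.25 for Paqr5 upwards. Kallikrein genes are near-identical copies whose reads may be split among members, and single values are uncertain. Il2rg shares exons with Gm20489 on the same strand.

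Among the 8 protein-coding genes with the highest levels in EES, those outside the protamine group were Dbil5, Oaz3, Gsg1 and 4933411K16Rik. Dbil5, an endozepine-like protein of spermatids, had 4542, 2297 and 3849 RPKM in EES, against 269, 354 and 329.5 RPKM in RS. Oaz3, the testis antizyme that inhibits ornithine decarboxylase, had 4205, 2144 and 4002 RPKM in EES, against 83.9, 119 and 139.7 RPKM in RS. Gsg1, a partner of the testis poly(A) polymerase, had 4069, 1946 and 3628 RPKM in EES, against 138, 195 and 203 RPKM in RS. 4933411K16Rik had 3899, 1771 and 3539 RPKM in EES, against 44.0, 62.5 and 77.8 RPKM in RS. All 4 overlap exons of another GENCODE gene, such as Tdrkh for Oaz3.

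Of 18 tested members of the histone variant list, 5 rose and 8 fell (27.8% and 44.4%), 8 rose and 5 fell with centring and 5 rose and 9 fell without EES replicate 2, and the median of -0.89 was on the other side of 0 with centring, at 0.56. The 5 that rose were late variants of the testis. H1f7, a linker histone of elongating spermatids, had 2152, 991 and 1939.6 RPKM in EES, against 27.8, 34.0 and 42.7 RPKM in RS. H2al2a, an H2A variant that acts in protamine loading in mouse, had 1831, 755 and 1430.3 RPKM in EES, against 14.5, 17.7 and 26.4 RPKM in RS. H2bl1, an H2B variant found in the perinuclear theca, had 1631, 820.2 and 1448 RPKM in EES, against 25.7, 22.2 and 36.2 RPKM in RS. Their log2 fold changes were 5.55, 6.05 and 5.50, and those of H2al1a and H2al3 were 5.21 and 5.17; the H2al genes are near-identical copies and single members are uncertain. Among those that fell were replacement and early variants. H2ab1, an X-linked variant of round spermatids, had 0, 2.10 and 0.0474 RPKM in EES, against 3.46, 3.46 and 3.79 RPKM in RS. H2az1, H2A.Z, had 1.31, 6.80 and 2.78 RPKM in EES, against 53.8, 37.3 and 31.6 RPKM in RS. H2ab3 and Macroh2a1 fell by 4.01 and 3.53 on the log2 scale.

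Of 31 tested genes of enzymes that open chromatin before histones leave, 1 rose and 19 fell (61.3%, against 54.9% of all tested genes), with a median of -1.52 against -1.42 for all genes. The counts were 6 and 13 with centring and 1 and 21 without EES replicate 2. Chd5, a remodeller needed for the exchange in mouse, was the member that rose, with 42.4, 54.7 and 47.6 RPKM in EES, against 7.56, 12.6 and 11.3 RPKM in RS (log2 fold change 2.22 ± 0.33, adjusted p 4.68e-05). Parp1, the poly(ADP-ribose) polymerase, had 0.649, 2.31 and 1.15 RPKM in EES, against 20.6, 25.8 and 20.1 RPKM in RS. Smarca4, an ATPase of SWI/SNF complexes, had 1.54, 2.69 and 2.18 RPKM in EES, against 22.9, 40.6 and 28.6 RPKM in RS. Hdac1, a histone deacetylase, and Brd2, a bromodomain protein, fell by 3.82 and 3.48 on the log2 scale. Brdt, the testis bromodomain protein that binds acetylated histones, had 20.4, 35.9 and 25.2 RPKM in EES, against 49.6, 37.1 and 50.7 RPKM in RS, and was not called (log2 fold change -0.78).

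Genes of the tail's accessory structures had high levels in EES. Of 25 tested members of the outer dense fibre and fibrous sheath list, 12 rose and 7 fell (48.0% and 28.0%), against 15 and 5 with centring and 11 and 9 without EES replicate 2. Akap4, the main anchoring protein of the fibrous sheath, had 3244, 1601 and 3236 RPKM in EES, against 82.9, 75.6 and 105 RPKM in RS (log2 fold change 4.88 ± 0.42). Fscb, a calcium-binding protein of the sheath, had 419, 319 and 474 RPKM in EES, against 25.5, 11.4 and 33.1 RPKM in RS (4.22 ± 0.40). Both groups kept apart for these genes and for Odf1 (4.20 ± 0.46). Of the members that fell, Cstf2t, a polyadenylation factor placed with this list, fell most, with 0.457, 0.816 and 0.790 RPKM in EES, against 16.6, 16.5 and 14.2 RPKM in RS. Odf3, Tsga10 and Odf4 were not called, with log2 fold changes of 0.64, 0.19 and 0.06.

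The mitochondrial sheath list, on the sleeve of mitochondria around the midpiece, had 10 rises and 8 falls among 22 tested members, 11 and 4 with centring, and 10 and 11 without EES replicate 2. Spem1, which acts in cytoplasm removal and head shape, had 1986, 797 and 1698 RPKM in EES, against 14.7, 22.1 and 26.4 RPKM in RS (log2 fold change 6.09 ± 0.52). Its neighbour Spem2 had 798, 334 and 693 RPKM in EES, against 7.24, 10.2 and 12 RPKM in RS. Smcp, a cysteine-rich capsule protein of sperm mitochondria, had 432, 244 and 551 RPKM in EES, against 18.2, 28.9 and 25.9 RPKM in RS. Spata18, a mitochondrial quality control protein, rose by 4.93 on the log2 scale. In contrast Vdac2, a channel of the outer mitochondrial membrane, had 2.91, 51.7 and 7.60 RPKM in EES, against 167, 162 and 145 RPKM in RS (-3.91 ± 0.74).

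Genes that join head and tail or shape the nucleus had 7 rises and 8 falls among 22 tested members, 13 and 5 with centring and 7 and 10 without EES replicate 2. Iqcn, an IQ-motif protein, had 174, 115 and 188 RPKM in EES, against 9.85, 17.9 and 15.7 RPKM in RS (log2 fold change 3.47 ± 0.37). Pmfbp1 and Spata6, of the connecting piece, rose by 3.22 and 2.67. Dpy19l2, which anchors the acrosome to the nuclear envelope, had 4.61, 33.0 and 8.20 RPKM in EES, against 123, 74.0 and 111 RPKM in RS (-3.22 ± 0.68). Ccdc42 and Ccdc38, of the manchette and the head-tail junction, fell by 3.91 and 3.12, and Lmnb1, lamin B1, fell by 2.63.

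The perinuclear theca, the protein shell between the nucleus and the membranes of the sperm head, had the most uniform list after the protamines. Of 17 tested members, 16 rose (94.1%) and 1 fell, with a median of 3.02, and 16 rose and 0 fell with centring, and 16 and 1 without EES replicate 2. Actrt2, an actin-related protein, had 2046, 943 and 1884 RPKM in EES, against 32.2, 35.6 and 50.7 RPKM in RS (log2 fold change 5.31 ± 0.38). Actl11 had 265, 141 and 267 RPKM in EES, against 9.03, 14.5 and 14.1 RPKM in RS (4.13 ± 0.38). Actrt1 had 87.1, 47.7 and 86.9 RPKM in EES, against 3.61, 3.65 and 6.11 RPKM in RS (4.04 ± 0.43). These actin-related genes kept the groups apart in every library. Plcz1, the phospholipase that starts calcium waves in the egg, had 303, 263 and 377 RPKM in EES, against 40.4, 26.6 and 52.2 RPKM in RS, and rose by 3.02. Actl7b, another actin-like protein, was the member that fell, but its EES replicate 2 stood above RS, with 35.5, 577 and 63.3 RPKM in EES, against 415, 468 and 433 RPKM in RS. Its call (log2 fold change -2.01, adjusted p 0.0259) was lost with centring, with the 6 libraries alone, with no filter on low values, and without RS replicate 1, 2 or 3 or EES replicate 1 or 3, with log2 fold changes from -2.05 to -0.56.

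The list of testis-specific serine kinases, with other kinases, phosphatase subunits and partner proteins, had 8 rises and 8 falls among 22 tested members, 11 and 4 with centring, and 8 and 10 without EES replicate 2. Its largest fall was that of Nek2 (-5.44). Tssk6, a testis-specific serine kinase needed for chromatin condensation in mouse, had 562, 168 and 380.0 RPKM in EES, against 4.92, 4.81 and 5.65 RPKM in RS (log2 fold change 6.01 ± 0.43). Its exons overlap those of Ndufa13 on the other strand. Tsks, a substrate of these kinases, had 899, 471 and 773 RPKM in EES, against 40.2, 48.9 and 50.4 RPKM in RS (3.90 ± 0.32). Prkar2a, a regulatory subunit of protein kinase A, rose by 5.89, whereas Prkaca, the catalytic subunit, had 1.16, 17.1 and 2.64 RPKM in EES, against 43.9, 61.4 and 48.8 RPKM in RS (-3.76 ± 0.69). Camk4, a calmodulin kinase, had 34.9, 29.4 and 37.3 RPKM in EES, against 1.46, 1.61 and 2.30 RPKM in RS (4.26 ± 0.31).

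Sperm glycolysis is run by germ-cell isoforms bound to the fibrous sheath, and 7 of 18 tested members rose while 7 fell (9 and 4 with centring, 7 and 8 without EES replicate 2). Gapdhs, the sperm glyceraldehyde-3-phosphate dehydrogenase, had 1440.2, 657 and 1297 RPKM in EES, against 36.2, 55.6 and 54.5 RPKM in RS (log2 fold change 4.48 ± 0.36). Gpi1, glucose-6-phosphate isomerase, had 236, 105 and 217 RPKM in EES, against 4.45, 6.26 and 7.24 RPKM in RS (4.90 ± 0.29). Hk1 and Aldoart2, hexokinase and a germ-cell aldolase, rose by 2.74 and 2.65. Slc2a3, the glucose transporter GLUT3, had 2.75, 7.99 and 6.40 RPKM in EES, against 181, 199 and 169.9 RPKM in RS (-5.14 ± 0.68). Ldhc, the testis lactate dehydrogenase, had 1148, 1845 and 1331 RPKM in EES, against 2438, 2724 and 2589 RPKM in RS and was not called (-0.87 ± 0.49, adjusted p 0.124).

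Ion channels and transporters of sperm, with the CatSper calcium channel at their centre, had 2 rises and 13 falls among 22 tested members. The falls made 59.1%, against 54.9% of all tested genes, and the median was -1.90 against -1.42. The counts were 3 and 8 with centring and 2 and 18 without EES replicate 2. Atp1a4, the sperm isoform of the sodium pump, had 621, 394 and 636 RPKM in EES, against 16.9, 24.7 and 29.1 RPKM in RS (log2 fold change 4.55 ± 0.43). Slc9b1, a sodium/proton exchanger, had 1.84, 26.4 and 4.23 RPKM in EES, against 74.2, 79.3 and 73.2 RPKM in RS (-3.67 ± 0.73). Atp2b4, a plasma membrane calcium pump, Slco6c1, an organic anion transporter, and Slc26a8, an anion transporter, fell by 4.26, 4.0 and 3.50. The pore subunits Catsper1 and Catsper3 were not called, and EES replicate 2 was their highest library: Catsper1 had 2.80, 52.1 and 5.81 RPKM in EES, against 15, 28.0 and 23.8 RPKM in RS.

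Counts of acrosomal genes changed with EES replicate 2. Of 42 tested members, 7 rose and 14 fell with the 3 EES libraries (16.7% and 33.3%), against 7 and 30 without replicate 2, and 12 and 8 with centring. Zpbp2, a zona pellucida-binding protein, had 2.05, 88.0 and 9.97 RPKM in EES, against 324, 303 and 299.7 RPKM in RS (log2 fold change -4.66 ± 0.97, adjusted p 0.000702). Izumo4 had 0.497, 17.7 and 1.60 RPKM in EES, against 61.4, 57.2 and 57.6 RPKM in RS, and Prss21, a membrane serine protease, and Gopc, a Golgi protein needed for acrosome formation, fell by 3.81 and 3.34. For these, replicate 2 lay between the other EES libraries and RS. Spaca9, the largest rise of the list, had 819, 530.3 and 722 RPKM in EES, against 41.8, 44.5 and 62.8 RPKM in RS (3.80 ± 0.29). Izumo2 and Tmco5 also rose, by 3.27 and 2.44.

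In a further set of acrosomal genes EES replicate 2 was the highest of the 6 libraries. It exceeded the other 5 by at least 1.5-fold, at 10 RPKM or more, in 18 of the 42 members. Examples, chosen after their values were seen, were Hyal5, Spaca1 and Eqtn. Hyal5, a sperm hyaluronidase, had 6.11, 106 and 13.9 RPKM in EES, against 15.9, 7.27 and 16.5 RPKM in RS. Spaca1, a protein of the inner acrosomal membrane, had 1.11, 154 and 8.83 RPKM in EES, against 63.9, 56.4 and 57.2 RPKM in RS. Eqtn, equatorin, had 3.05, 172 and 13.3 RPKM in EES, against 39.9, 24.1 and 41.3 RPKM in RS. In each, EES replicate 2 stood above every RS library and EES replicate 1 below every one. Of the acrosomal members that fell without replicate 2 and reached 10 RPKM, 26 in number, the median place of replicate 2 was -113.3% of the way from RS to the other EES libraries, that is, beyond RS on the far side.

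Over all genes, EES replicate 2 was the highest library by at least 1.5-fold at 10 RPKM or more in 490 genes (3.7% of those tested), and by at least 2-fold in 304. For the other libraries the count at 1.5-fold was 4 in EES replicate 1, 3 in EES replicate 3, and 50, 22 and 6 in RS. In the 490 genes replicate 2 was also above every LES library. Further examples outside the acrosome list, taken as those with high levels, were Kif2b, a kinesin, with 124, 469 and 174 RPKM in EES, against 108, 133 and 139 RPKM in RS, and Tex33, with 92.4, 448 and 126 RPKM in EES, against 147, 209 and 195 RPKM in RS. In the sperm ion transport list 5 of 22 members met this measure, Lrrc52, Catsper1, Catsper3, Catsper4 and Efcab9. It was met by 3 of 22 head-tail coupling genes and 3 of 22 genes of the kinase list. Of the list of multicopy sex-linked genes 3 of 22 members met it. So did 3 of 23 transcription regulators, 3 of 25 genes of the outer dense fibre and fibrous sheath list and 3 of 37 ubiquitin factors. It was met by 0 of the 80 ribosomal protein genes and 0 of the 77 respiratory chain genes.

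For genes that changed without replicate 2 and reached 10 RPKM, replicate 2 lay mostly between the groups. Placed on a line from the RS mean (0%) to the mean of EES replicates 1 and 3 (100%), its median was 57.2% over the 1110 genes that rose, with quartiles of 45.6 and 83.6%. Over the 2857 genes that fell, its median was 71.6%, with quartiles of 55.2 and 85.7%. The LES mean stood at medians of 96.8% for the rises and 97.8% for the falls, and the Prm1-EGFP library at 68.9% and 93.6%. In 9447 of the 13260 tested genes replicate 2 lay between the group means. Some falls were nearly complete in it. Ccdc151, of the dynein docking complex, had 2.99, 4.08 and 4.04 RPKM in EES, against 56.0, 79.5 and 61.1 RPKM in RS, a place of 99.1%. Diablo, a mitochondrial pro-apoptotic protein, had 2.38, 4.38 and 3.37 RPKM in EES, against 81.3, 73.3 and 66.2 RPKM in RS, a place of 97.9%. Others had barely fallen or were higher. Creld2, a protein of the endoplasmic reticulum, had 2.02, 183 and 12.1 RPKM in EES, against 150.4, 202 and 166 RPKM in RS. These 3 were chosen after their values were seen, from genes at 50 RPKM or more in RS.

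**Figure D4:**
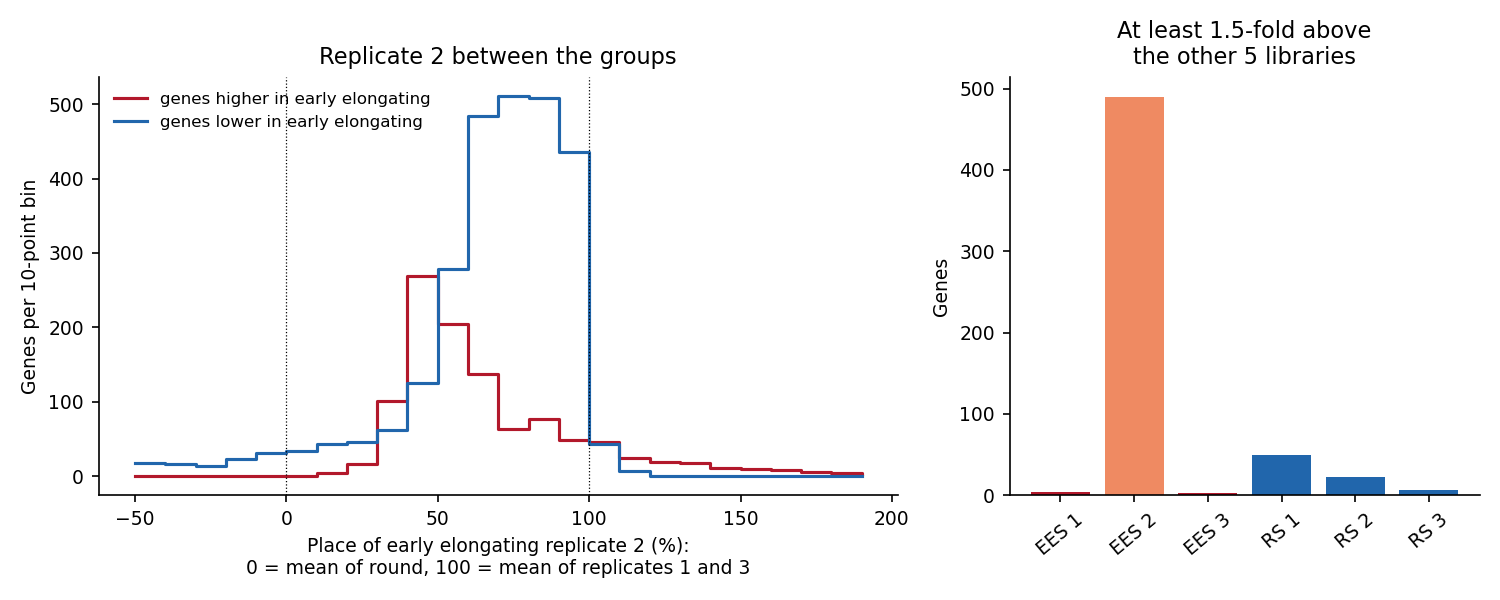
Left, number of genes per 10-point bin by the place of EES replicate 2, in percent of the way from the RS mean (0) to the mean of EES replicates 1 and 3 (100), for 1110 genes that rose and 2857 that fell without it at 10 RPKM or more (bins below -50 and above 200 are not drawn). Right, number of genes in which each library was at least 1.5-fold above the other 5: 490 for EES replicate 2 and at most 50 for any other.

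Regulators of spermatid transcription had 5 rises and 9 falls among 23 tested members, 9 and 4 with centring, and 5 and 11 without EES replicate 2. Camk4 is among those that rose. Spz1, a basic helix-loop-helix factor, had 3336, 1833 and 3571 RPKM in EES, against 133, 160.0 and 175 RPKM in RS (log2 fold change 4.17 ± 0.35). Tbpl1, the TATA-binding protein-like factor that spermatids need in mouse, had 3.45, 39.1 and 6.92 RPKM in EES, against 181, 135 and 146 RPKM in RS (-3.96 ± 0.65). Gtf2a1l, its germ-cell TFIIA partner, had 13.5, 121 and 22.5 RPKM in EES, against 271, 293 and 282 RPKM in RS (-3.08 ± 0.67). Mybl1 and Gmcl1 fell by 3.10 and 2.83. Crem, the activator of many haploid genes, had 14.5, 44.2 and 16.7 RPKM in EES, against 43.0, 33.4 and 44.3 RPKM in RS and was not called (-0.86, adjusted p 0.0502).

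Of 13 RNA polymerase II subunits, 0 rose and 10 fell (76.9%), against 2 and 6 with centring and 0 and 10 without EES replicate 2. Polr2e, a shared subunit, had 0.562, 0.676 and 0.584 RPKM in EES, against 10.3, 12.4 and 10.1 RPKM in RS (log2 fold change -4.15 ± 0.21). Polr2c, Polr2d and Polr2k fell by 3.55, 3.35 and 3.06, and had at most 3.3 RPKM in any RS library. Of 38 core spliceosome genes, 1 rose and 32 fell (84.2%), with a median of -3.17, 1 and 27 with centring, and 1 and 34 without EES replicate 2. Snrpb2, a protein of the U2 particle, had 0.155, 2.94 and 0.413 RPKM in EES, against 22.5, 13.9 and 12.8 RPKM in RS (-4.75 ± 0.83). Snrnp200, the helicase that unwinds U4/U6, had 1.00, 4.08 and 1.84 RPKM in EES, against 31.4, 46.6 and 37.9 RPKM in RS (-4.27 ± 0.43). Sf3a3 and Snrpg fell by 4.39 and 4.24. Snrpd2, a Sm core protein, rose, with 183, 111 and 167 RPKM in EES, against 58.3, 52.5 and 54.8 RPKM in RS (1.44 ± 0.22).

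Messenger storage and translation factors included both signs, with 10 rises and 18 falls among 40 tested members, 15 and 9 with centring, and 10 and 22 without EES replicate 2. Akap1, an RNA-binding anchor of the outer mitochondrial membrane, had 803, 394 and 720.3 RPKM in EES, against 15.8, 19.9 and 22.4 RPKM in RS (log2 fold change 4.99 ± 0.37). The translation factor Eif4g1 rose by 3.75 and the RNA-binding repressor Samd4 by 4.14. Pabpc1, the general poly(A)-binding protein, had 7.06, 91.7 and 16.3 RPKM in EES, against 156, 203 and 184 RPKM in RS (-3.03 ± 0.63). Pabpc6, a germ-cell paralogue, had 3.16, 11.4 and 7.91 RPKM in EES, against 245, 179 and 259 RPKM in RS (-5.09 ± 0.58). Ddx25, a helicase that exports and stores messengers, had 5.85, 46.6 and 9.72 RPKM in EES, against 109.6, 119 and 108 RPKM in RS, and Celf1 fell by 3.12. Ybx2, which coats stored messengers, had 765, 429.7 and 651 RPKM in EES, against 322, 443 and 315 RPKM in RS, and was not called without centring (0.75, adjusted p 0.0739).

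Genes of messenger decay had 3 rises and 30 falls among 44 tested members. The falls made 68.2%, against 54.9% of all tested genes, and the median was -1.73 against -1.42. The counts were 13 and 16 with centring and 4 and 30 without EES replicate 2. Pan2, a deadenylase, had 0.1, 0.614 and 0.208 RPKM in EES, against 3.55, 5.46 and 4.17 RPKM in RS (log2 fold change -4.14 ± 0.49). Edc4, a decapping enhancer, had 1.29, 1.87 and 1.41 RPKM in EES, against 24.0, 27.2 and 23.5 RPKM in RS (-4.04 ± 0.27). Cnot11 and Exosc9, of the CCR4-NOT complex and the exosome, fell by 3.92 and 3.46. Dcp1a, a decapping cofactor, rose, with 4.52, 1.98 and 4.09 RPKM in EES, against 0.580, 0.751 and 0.700 RPKM in RS (2.29 ± 0.27). In the piRNA pathway, which silences transposons, 1 of 21 tested members rose and 17 fell (81.0%), with 1 and 8 under centring and 1 and 19 without EES replicate 2. Tdrd6, a tudor protein of the chromatoid body, had 5.21, 76.1 and 12.8 RPKM in EES, against 218, 313 and 252 RPKM in RS (-3.91 ± 0.81). Tdrd7, Pld6 and Pnldc1 fell by 3.50, 3.46 and 2.95. The member that rose, Tdrkh (4.47 ± 0.25), overlaps Oaz3 on the other strand, and its level of 287, 140.0 and 268 RPKM in EES, against 7.98, 10.6 and 11.7 RPKM in RS, cannot be told apart from reads of that gene.

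Most cytosolic ribosomal protein genes were not called. Of 80 tested, 2 rose and 23 fell, and 55 were not called, with a median of -0.03 against -1.42 for all genes. With centring 48 rose and 7 fell, with quantile normalization 12 rose and 11 fell, and without EES replicate 2 the counts were 4 and 23. Their summed level was 4256, 3312 and 3821 RPKM in EES, against 4173, 4004 and 3763 RPKM in RS, and the groups overlapped. Members that fell most were Rps27a, Rpl22l1, Rps27l and Rpl5, by 4.02, 3.72, 3.61 and 3.10. Rpl22l1, a paralogue of Rpl22, had 0.919, 22.1 and 3.00 RPKM in EES, against 61.7, 48.1 and 48.0 RPKM in RS. Rps4x, the largest rise at 2.04, was below 1 RPKM in all 6 libraries and lost its call with no filter, with a pseudocount of 0.1 or 1 RPKM, with voom, and without RS replicate 1 or EES replicate 3. Ribosomal protein genes have many near-identical copies, so single members are uncertain.

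Of 35 proteasome genes 2 rose and 29 fell (82.9%), with a median of -2.75, 6 and 20 with centring, and 3 and 29 without EES replicate 2. Psmd3, of the regulatory lid, had 0.480, 1.16 and 0.610 RPKM in EES, against 16.0, 17.3 and 14.4 RPKM in RS (log2 fold change -4.49 ± 0.34). Psma2, Psmd14 and Psmb1 fell by 4.20, 3.96 and 3.77. Psma6, a core subunit, rose, with 1014, 648 and 887 RPKM in EES, against 122, 102 and 120.1 RPKM in RS (2.87 ± 0.20). The summed level of the 35 genes, 1512, 1503 and 1455 RPKM in EES, against 1588, 1670 and 1584 RPKM in RS, includes this gene. Of 37 ubiquitin factors of spermatids, 16 rose and 8 fell, 25 and 3 with centring, and 15 and 10 without EES replicate 2. Ubqlnl had 555, 239.7 and 548 RPKM in EES, against 3.94, 5.19 and 7.99 RPKM in RS. Rnf133, a testis ubiquitin ligase, had 795, 421 and 765 RPKM in EES, against 10.2, 10.8 and 16.3 RPKM in RS (5.71 ± 0.44). Asb17 and Spata3 rose by 5.64 and 5.87. Marchf11 had the largest fall, with 0.772, 31.1 and 2.74 RPKM in EES, against 64.2, 86.4 and 71.5 RPKM in RS.

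Of 30 tested chaperones, 8 rose and 15 fell, against 11 and 10 with centring and 8 and 17 without EES replicate 2. Dnajb8, a J-domain protein that suppresses aggregation, had 1507, 682 and 1457 RPKM in EES, against 13.7, 20.2 and 23.9 RPKM in RS (log2 fold change 5.93 ± 0.46). Hspa1l, the spermatid Hsp70, had 1368, 608 and 1312 RPKM in EES, against 16.6, 19.5 and 24.1 RPKM in RS (5.70 ± 0.36). Hspa2, the Hsp70 of spermatocytes, had 16.5, 256 and 37.4 RPKM in EES, against 668, 768 and 629 RPKM in RS (-3.66 ± 0.75). Hspa5 and Hsp90b1, the main chaperones of the endoplasmic reticulum, fell by 5.19 and 4.16, and Hspbap1, which binds a small heat shock protein, by 4.15. Hspa5 had 2.63, 9.46 and 5.29 RPKM in EES, against 205, 183 and 171 RPKM in RS.

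Genes of autophagy and cytoplasm removal had 2 rises and 10 falls among 22 tested members. Spata3 (5.87), also in the list of ubiquitin factors, was the largest rise. The falls made 45.5%, against 54.9% of all tested genes. The counts were 11 and 5 with centring and 2 and 11 without EES replicate 2. Gabarapl1 had 294, 137 and 279 RPKM in EES, against 16.5, 19 and 18.8 RPKM in RS (log2 fold change 3.63 ± 0.35), while its relative Gabarapl2 had 0.152, 0.639 and 0.412 RPKM in EES, against 10.8, 10.8 and 8.67 RPKM in RS (-4.83 ± 0.51). Atg13, Atg4b and Becn1, which act in forming the autophagosome, fell by 3.95, 3.22 and 2.63. Of 77 nuclear genes of the respiratory chain, 2 rose and 56 fell (72.7%), 12 and 27 with centring, and 2 and 61 without EES replicate 2. Sdhc, of succinate dehydrogenase, had 0.302, 0.727 and 0.526 RPKM in EES, against 12.5, 11.9 and 10.8 RPKM in RS (-4.56 ± 0.39). Cyct, the testis cytochrome c, had 0.556, 24.2 and 3.15 RPKM in EES, against 85.2, 77.2 and 69.2 RPKM in RS (-4.45 ± 1.02). Sdhd and Ndufb6 fell by 4.42 and 4.32. Ndufa13, the largest rise (2.74 ± 0.26), overlaps Tssk6.

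Of 37 genes of the manchette and intraflagellar transport, 2 rose, 29 fell (78.4%) and 6 were not called, against 5 rises and 14 falls with centring and 2 and 30 without EES replicate 2. Hook1, a manchette linker, rose, with 171, 119 and 199.8 RPKM in EES, against 22.2, 13.4 and 28.1 RPKM in RS (log2 fold change 2.97 ± 0.30). Katnal2, a severing-type ATPase, and Ift43, of the transport complex, fell by 4.17 and 4.07. Ift43 had 0.923, 49.1 and 3.97 RPKM in EES, against 89.8, 103 and 94.5 RPKM in RS, so that replicate 2 had kept more of it than the other EES libraries. Kifc1, a kinesin of the manchette, fell by 3.95. Tekt4 fell by 3.81 and lost its call in a fit of the 6 libraries alone. Of 43 axonemal genes, 1 rose, 35 fell (81.4%) and 7 were not called, with a median of -2.36, against 5 rises and 20 falls with centring and 1 and 37 without EES replicate 2. Dnaic2, an intermediate chain of the outer dynein arm, had 1.05, 2.84 and 1.81 RPKM in EES, against 66.6, 87.5 and 67.9 RPKM in RS (-5.38 ± 0.42). Dnal4, Cfap45 and Spag6l fell by 4.36, 3.90 and 3.78, and Tekt5 rose, with 51.9, 66.8 and 48.0 RPKM in EES, against 17.9, 21.0 and 20.8 RPKM in RS.

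The 12 largest falls of protein-coding genes at 32 RPKM or more in RS, clone-based names again passed over, were headed by Rfx8 and Pxt1. Rfx8, of the RFX family of DNA-binding factors, had 1.16, 8.06 and 2.30 RPKM in EES, against 174, 145 and 132 RPKM in RS (log2 fold change -5.74 ± 0.63, adjusted p 4.16e-06). Pxt1, a testis protein of peroxisomes, had 0.883, 3.03 and 2.05 RPKM in EES, against 89.5, 92.0 and 84.3 RPKM in RS (-5.64 ± 0.64, 5.08e-06). Aurka, a kinase of spindle and centrosome, had 2.54, 7.78 and 3.66 RPKM in EES, against 216, 204 and 167 RPKM in RS (-5.54 ± 0.40, 1.74e-07). Nek2, another centrosomal kinase, had 1.59, 4.54 and 2.96 RPKM in EES, against 118, 138 and 108 RPKM in RS (-5.44 ± 0.41, 2.15e-07). In these, the highest EES library was replicate 2. Groups without overlap were a condition of the choice of all 12. Nxt1, a messenger export cofactor, and Cog6, of the Golgi, fell by 5.41 and 5.39. The rest were Dnaic2, Reep4, Lrrc49, Rhcg, Hspa5 and Speer4c, with falls of 5.38 to 5.15. Speer4c has near-identical copies and is uncertain.

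**Figure D5:**
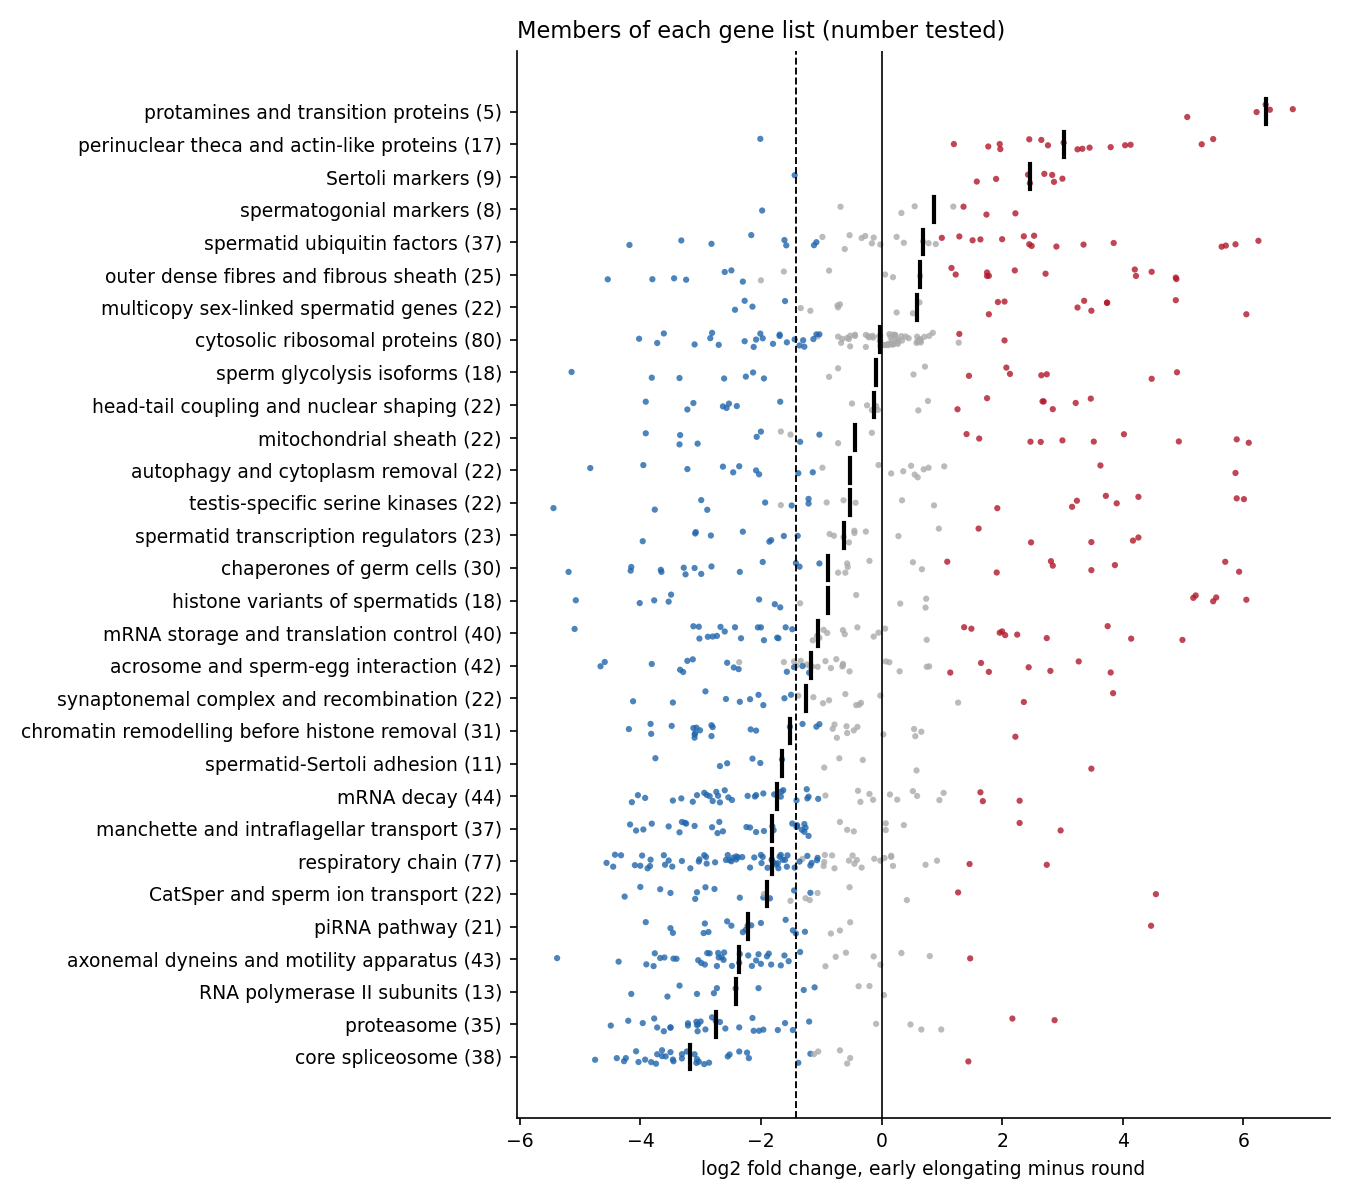
Log2 fold change, EES minus RS, of the tested members of 30 lists (number tested in brackets), with rises in red, falls in blue and members not called in grey. Black bars are list medians, the solid line is 0 and the dashed line the median of all tested genes (-1.42), which is at 0.02 with centring; list medians run from 6.37 (protamines and transition proteins) to -3.17 (core spliceosome).

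Centring adds the same amount to the log2 fold change of every gene. List medians that were below 0 by less than that came to lie above it for histone variants, transcription regulators, storage and translation, mitochondrial sheath, head-tail coupling, acrosome, kinases, glycolysis, ribosomal proteins, autophagy, chaperones, synapsis and Leydig markers.

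The list of multicopy genes linked to the sex chromosomes had 10 rises and 4 falls among 22 tested members. The counts were 12 and 0 with centring, and 10 and 9 without EES replicate 2. Its largest rises, H2al2a (6.05) and Akap4 (4.88), are also members of lists above, and H2al2a lies on chromosome 2. Cypt3, a cysteine-rich basic protein of the perinuclear theca, had 509, 313 and 524 RPKM in EES, against 29.8, 32.1 and 36.3 RPKM in RS (log2 fold change 3.74 ± 0.45). Magea4 rose by 3.74, was under 1 RPKM in all 6 libraries and lost its call with a pseudocount of 1 RPKM. Usp26, which fell by 2.43, lost it with centring, quantile normalization, that pseudocount and the 6 libraries alone. Sly and Slxl1, transcription regulators of the sex chromosomes in spermatids, were not called (-0.69 and -1.18). Members of these families share near-identical copies and are uncertain.

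The X chromosome as a whole differed in its share of calls. Of 527 tested X-linked genes, 28.7% rose and 29.6% fell with a median log2 fold change of -0.08. These include genes that passed the filter through other stages, such as Rps4x and Magea4, which were under 1 RPKM in all 6 libraries. The part of such low genes in the X chromosome's shares was not tested. On the autosomes from 11.8% (chromosome 5) to 19.9% (chromosome 3) rose, and medians ran from -1.68 to -1.18. By gene type, 14.9% of 11698 protein-coding genes rose and 56.6% fell, against 29.2% and 39.6% of 1019 lncRNA genes. Of 72 snoRNA genes 0 rose and 38 fell (52.8%, against 54.9% of all tested genes). Of the 2653 genes with at most 1635 bases of exon, 25.1% rose, against 11.6 to 16.9% in the 4 classes of longer genes. Median exon length was 3298 bases in protein-coding genes that rose, 4007 in those that fell and 3910 in all tested. These exon lengths were fitted from the values, as the smallest that gave whole reads, and were not taken from an annotation.

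Markers of earlier germ cells and of other testis cells were read beside these results. Of 22 tested genes of synapsis and recombination, 2 rose and 10 fell (45.5%, against 54.9% of all tested genes). The counts were 5 and 4 with centring and 2 and 14 without EES replicate 2. Spo11, which makes meiotic DNA breaks, had 0.327, 3.97 and 0.829 RPKM in EES, against 19.9, 16.4 and 18.2 RPKM in RS, and Hormad1, Stag3 and Mlh3 fell by 3.46, 2.92 and 2.58. Syce2, of the synaptonemal complex, rose, with 139, 79.8 and 134 RPKM in EES, against 9.38, 7.20 and 7.46 RPKM in RS (log2 fold change 3.84 ± 0.24). Of 8 tested spermatogonial markers, 3 rose and 1 fell at low levels (2 and 1 without EES replicate 2), summed at 8.95, 10.7 and 10.5 RPKM in EES, against 4.80, 5.87 and 5.09 RPKM in RS. Kit, with 0.158, 1.07 and 0.164 RPKM in EES, against 0.119, 0.0773 and 0.0648 RPKM in RS, was called through replicate 2: without it the log2 fold change was 0.86 in place of 1.74. Uchl1 and Sohlh2 rose by 2.22 and 1.36 and Id4 fell by 1.98. The call of Sohlh2 was lost with a pseudocount of 1 RPKM, and that of Id4 with this pseudocount and with centring.

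Sertoli cell markers were at low levels. Of 16 named, 9 passed the filter on low values, and Cst9, Clu, Cst12 and Aard were under 1 RPKM in every RS library, so that they passed through EES or other stages. Among the 9, 8 rose and 1 fell, also without EES replicate 2, and with a pseudocount of 1 RPKM 4 rose, 0 fell and 5 were not called. The summed level over the 16 was 19.55, 11.22 and 33.21 RPKM in EES, against 5.13, 4.35 and 3.98 RPKM in RS. Defb19 had 6.08, 4.11 and 11.9 RPKM in EES, against 1.65, 0.663 and 0.689 RPKM in RS, and Cst9 had 4.95, 2.09 and 6.98 RPKM in EES, against 0.391, 0.570 and 0.604 RPKM in RS. Cst12 and Aard rose by 2.83 and 2.70, and the call of Aard was lost with a pseudocount of 1 RPKM. The defining factor Sox9 had 0, 0.0200 and 0.0519 RPKM in EES, against 0.0134, 0.00877 and 0.00365 RPKM in RS, and Wt1, Gata4, Amh and Fshr were below 1 RPKM in all 6 libraries, with a highest value of 0.181 RPKM for Wt1 in EES replicate 3. Dhh fell by 1.44, which turned to 0.01 with centring. Of 8 Leydig cell markers 2 were tested, with Insl3 not called (-0.44). Star fell by 1.47, at under 1 RPKM in all 6 libraries, and its call was lost with centring and with larger pseudocounts. The summed level of the 8 was 0.902, 0.968 and 1.03 RPKM in EES, against 1.36, 1.14 and 1.29 RPKM in RS. Of 13 markers of muscle, macrophage, endothelial and red cells in the table, 3 were tested. Hba-a1 and Hbb-bt rose by 3.09 and 2.06, with at most 2.04 RPKM in an EES library, and lost their calls with a pseudocount of 1 RPKM. Both were under 1 RPKM in every RS library, so that they passed the filter through EES or other stages. Csf1r fell by 4.04, and was under 1 RPKM in every EES library, so that it passed through RS or other stages. Its exons overlap those of Hmgxb3 on the other strand, so its reads cannot be told apart from those of that gene. The summed level of the 13 was 3.77, 5.59 and 6.31 RPKM in EES, against 5.42, 6.32 and 5.70 RPKM in RS. Adhesion genes by which spermatids hold to Sertoli cells had 1 rise and 6 falls among 11 tested, 3 and 3 with centring, and 1 and 6 without EES replicate 2. Nectin2 rose, with 24.7, 11.6 and 22.7 RPKM in EES, against 1.51, 1.5 and 2.03 RPKM in RS, and Cdh2, N-cadherin, had 0.379, 1.39 and 0.525 RPKM in EES, against 9.85, 8.69 and 8.24 RPKM in RS. Cadm2, Jam2 and Lamb3 fell by 2.68, 2.56 and 2.14, and the call of Lamb3 was lost with centring. The part of other cells in these results was not tested.

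In the table of de novo genes, 4957 of 21515 tested loci (23.0%) rose and 10182 (47.3%) fell. With centring, 6160 (28.6%) rose and 8119 (37.7%) fell, and without EES replicate 2, 4886 rose and 11276 fell. Of these loci, 5329 had no GENCODE gene on their strand, and among them 1819 (34.1%) rose and 1913 (35.9%) fell, with a median log2 fold change of -0.32 and, with centring, 2095 rises (39.3%) and 1509 falls (28.3%). Loci with several exons rose in 43.4% and fell in 30.7% of 2836 cases, and those with a single exon rose in 23.6% and fell in 41.8% of 2493. The largest rise at 8 RPKM or more was MSTRG.15158 (GRCm38/mm10, chr2:179993355-180002198, minus strand, 3 exons, opposite Gm14299), with 15.1, 5.80 and 13.4 RPKM in EES, against 0, 0.0960 and 0.178 RPKM in RS. MSTRG.10333 (chr16:92432019-92432510, plus strand, 1 exon, opposite Rcan1) had 19.4, 6.96 and 17 RPKM in EES, against 0.0377, 0.118 and 0.184 RPKM in RS (log2 fold change 6.96 ± 0.78). The largest falls were MSTRG.10671 (chr17:24468968-24469295, plus strand, opposite E4f1) and MSTRG.9868 (chr16:31377783-31380154, plus strand, opposite 1700007E05Rik). MSTRG.10671 had 0.0673, 1.16 and 0.0503 RPKM in EES, against 15.6, 14.7 and 18.2 RPKM in RS (-6.52 ± 0.82). MSTRG.9868 had 0, 3.48 and 0.115 RPKM in EES, against 9.59, 8.57 and 8.55 RPKM in RS (-5.77 ± 1.57).

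The loci of highest level in EES, chosen after their values were seen, lay opposite abundant genes. MSTRG.9621 (chr16:10784426-10790123, plus strand), which overlaps Tnp2 and Socs1 on the other strand, had 9239.7, 3392 and 7644 RPKM in EES, against 53.3, 73.5 and 112 RPKM in RS. MSTRG.8646 (chr15:38219325-38219864, minus strand), opposite Odf1, had 2661, 1517 and 2722 RPKM in EES, against 96.9, 158 and 156 RPKM in RS, close to the levels of Odf1 itself. MSTRG.11085, MSTRG.12964 and MSTRG.15274 lie opposite Crisp2, 4933411K16Rik and Fabp9. Such loci cannot be told apart from the gene opposite without knowing whether reads were counted by strand. Of the 9382 annotated genes called in either direction (70.8% of those tested), 3399 have exons that overlap those of another GENCODE gene.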

How the data were processed

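RNA from sorted cells was extracted with a DirectZol kit and sequenced from Illumina TruSeq libraries, per the labels. The submitters' processing notes name Trim Galore, STAR, GRCm38 and mm10, without versions or settings; strandedness is not stated. Both deposited tables hold values on a log2 scale, read here as the log2 of (100 × RPKM + 1). With exon lengths of the deposited annotation, all values of the de novo genes came out as whole reads within 0.01 read. For annotated genes the exon length was fitted, as the smallest that put all libraries on whole reads within 0.01 read. Whole reads of annotated genes therefore follow from that choice. Coordinates and transcripts of the deposited annotation (unit: other) come from an assembly by StringTie 1.3.4d, as the deposited file's header states. Reads of de novo genes summed to 107.8% of the library in EES replicate 1, so some were counted for more than 1 gene.

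Symbols, types and positions came from RefSeq's table of GRCm38.p6, in which 24570 of 24594 gene IDs were found, promoters from RefSeq for the same build (137 of 169 named genes), and de novo loci were compared with GENCODE M21. The test was limma 3.58.1 in R 4.3.3 (eBayes with trend) on log2(RPKM + 0.01) of the 15 libraries of the 5 stages, which share the estimate of the spread, with the contrast EES minus RS; the fit was tested on simulated data. Named genes are the 4 markers and the 12 largest rises and 12 largest falls among called protein-coding genes, passing over clone-based names. For these rises and falls the groups did not overlap and the higher group reached 32 RPKM. Also named are the 8 protein-coding genes highest in EES. Each of 32 lists gave up to 4 members in its majority direction with the largest in the other. For loci, the 2 largest each way at 8 RPKM or more are named. Named outside this rule, after their values were seen, were H1f7, H2al1a, H2al3, Brdt, Odf3, Odf4, Tsga10, Pmfbp1, Spata6, Plcz1, Prkaca, Ldhc, Catsper1, Catsper3, Catsper4, Efcab9, Lrrc52, Izumo2, Tmco5, Hyal5, Spaca1, Eqtn, Kif2b, Tex33, Ccdc151, Diablo, Creld2, Crem, Spz1, Eif4g1, Samd4, Ybx2, Hspa1l, Gabarapl1, Sly, Slxl1 and Insl3. The comparison, members and lists were chosen with earlier results of these data known, and lists share members. Alternatives were other filters, pseudocounts of 0.1 and 1 RPKM, median centring, quantile normalization, scaling to reads in genes, no trend, the 6 libraries alone, the replicate number as a block and each library left out. Chosen after seeing the data were centring without EES replicate 2, leaving out LZ replicate 3 and EES replicate 2, and limma's voom on the recovered reads.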

Additional observations from a re-analysis of the deposited data

How the results depend on the processing

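For annotated genes, median centring gave 4306 rises and 3715 falls, quantile normalization 3382 and 4219, scaling to reads in genes 1971 and 7574, and centring without EES replicate 2 gave 4753 and 4050, against 2096 and 7286 on the deposited scale; centring adds the same amount to every gene's log2 fold change. Rises made 53.7% of the calls with centring and 44.5% with quantile normalization, against 22.3%. With each of the 6 libraries left out in turn, rises ranged from 1999 to 2120 and falls from 6634 to 7985, and for de novo genes rises from 4729 to 4930 and falls from 9103 to 11276. Voom on the recovered reads gave 2113 rises and 7385 falls. De novo falls numbered 6491 with a pseudocount of 1 RPKM. Falls of loci with no GENCODE gene on their strand numbered 841 with that pseudocount, 1195 with a filter on 3 of the 6 libraries and 3261 with no filter, against 1913; the cause was not tested. Of the values of named genes under the alternatives, 3155 kept direction and side of the threshold, 41 lost the call, 2 gained it and 5 turned sign: Acrv1, not called at -1.24, at 0.21 with centring, Dhh at 0.01 with centring, 0.13 with quantile normalization and 0.35 with centring without EES replicate 2, and Star at 0.84 with the last. With the replicate number as a block, 2100 genes rose and 7260 fell and no named gene changed its call. Same-numbered libraries did not deviate together (correlations of deviations from the group means of -0.12, -0.06 and 0.03), so the numbers were not taken as a pairing. A pseudocount of 1 RPKM, which weighs low values less, gave 1613 rises and 5210 falls.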
